A study of Mus musculus with 30 samples.

Results

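Crypts of the mouse small intestine from which both Rb1, the gene of the retinoblastoma protein, and Myc had been deleted (Rb/Myc DKO) were compared with control crypts. The comparison uses the 5 arrays titled as Rb/Myc DKO crypts and the 5 titled as control crypts, 10 of the 30 arrays of the series, and covers every gene tested rather than a chosen set. Total RNA came from adult mice 2 months old, 5 days after ablation, and deletion relied on Ah-cre, a Cre recombinase under a promoter that responds to the aryl hydrocarbon receptor and that the labels describe as specific to the intestine. DKO mice lost Rb1 and Myc, Rb KO mice lost Rb1 alone, and the labels do not say which alleles, which Cre status or which inducer the control mice had. The 5 Rb KO crypt arrays entered the same fit and are given beside the double knockout, and DKO and control villi serve where crypts were compared with villi. Nothing in the labels ties each replicate to its own animal, and p-values measure the spread between these samples. By their Xist signal 2 of the 5 DKO, 1 of the 5 Rb KO and 2 of the 5 control samples were female, so no group came from a single animal.

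The retinoblastoma protein binds E2F transcription factors and keeps the genes of S phase silent until cyclin-dependent kinases phosphorylate it. Myc pairs with Max on E-box sequences and is best known for raising the output of ribosomes, nucleotides and other material for growth. The crypt is the dividing compartment of the intestinal epithelium: stem cells at its base feed a zone of rapidly cycling progenitors, whose daughters leave for the villus. Myc is a classical target of Wnt signalling in this zone.

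Values are deposited log2 expression values, so a difference of 1 is a 2-fold change. Per-array values are listed in the order of arrays 1 to 5, group levels are means ± SD with n = 5, differences are ± SE, and each adjusted p comes from limma, two-sided, after Benjamini-Hochberg adjustment over 14548 genes. As markers of the preparation, the crypt genes Olfm4 and Lyz1 lay above 99.1% of all genes on every DKO and control crypt array. Lyz1 was high in control villi too (percentiles 94.88 to 99.52). The crypt gene Lgr5 lay lower, at percentiles 52.4 to 67.53 in DKO crypts and 59.61 to 75.09 in control crypts. Villus genes were also high, and Apoa1 reached 13.80 to 14.42 in DKO crypts and 13.27 to 14.32 in control crypts. In whole-tissue RNA, fewer cells of a type and less RNA per cell cannot be told apart. Arrays of the same group correlated between 0.986 and 0.994, and a DKO with a control crypt array between 0.982 and 0.990. The difference between 3′ and 5′ control probe sets, a reading of RNA integrity, was 0.0326 higher in DKO for Gapdh (exact permutation test, two-sided, p = 0.206) and differed by -0.0417 for Actb (p = 0.262), over 252 splits that allow no p below 0.00794.

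Loss of both genes was read first. Rb1 stood at 8.16, 8.60, 8.17, 8.05 and 8.498 in DKO crypts, against 9.32, 9.63, 10.49, 10.37 and 9.76 in control crypts. Myc stood at 8.92, 8.67, 9.01, 8.90 and 8.88 in DKO crypts, against 10.86, 10.41, 10.34, 10.64 and 10.33 in control crypts. For both genes every DKO array lay below every control array. Rb1 fell by 1.62 ± 0.18 (adjusted p = 1.57e-05) and Myc by 1.64 ± 0.16 (adjusted p = 4.1e-06), ratios of DKO to control of 0.326 and 0.321 on the linear scale. In Rb KO crypts Myc averaged 10.48, a difference of -0.04 from control (adjusted p = 0.924). The files do not say whether these probe sets lie in the deleted exons, so neither remainder can be read as an amount of intact transcript.

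Beyond the deleted genes, 2942 genes (20.2% of those tested) passed the threshold. Of these, 1605 (11.0%) were higher and 1337 (9.19%) lower in DKO crypts. Those shares are the background for every count of list members that rose or fell in DKO against control crypts. Most changes were small: 2363 of the 2942 were under 0.5 on the log2 scale, while 37 genes (0.254%) rose and 29 (0.199%) fell at least 2-fold. In 1097 genes (7.54%) all 5 DKO arrays lay above all 5 control arrays, and in 869 (5.97%) all lay below. The median difference over all genes was 0.01. With 1 array left out in turn, 1298 to 1557 genes rose and 1111 to 1349 fell.

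DNA replication genes were higher in DKO crypts almost without exception. Of 54 measured genes of DNA replication and the G1/S step (56 listed), 51 rose and 0 fell, with a median difference of 0.51 (the median of all genes was 0.01), and in 46 of them the DKO arrays lay fully above the control arrays. Fen1, Rfc4 and Orc1 did not pass the threshold (differences of 0.20, 0.17 and 0.02). Averaged over the list, the DKO arrays stood 0.49, 0.54, 0.55, 0.56 and 0.46 above the control mean, and the control arrays lay between -0.18 and 0.07 of it, so the groups were well apart. Rrm2, a subunit of ribonucleotide reductase, which makes the deoxynucleotides for DNA, measured 11.27, 11.61, 11.59, 11.64 and 11.65 in DKO crypts, against 10.42, 10.25, 10.51, 10.63 and 10.74 in control crypts. The groups did not overlap, and Rrm2 rose by 1.04 ± 0.09 (adjusted p = 1.61e-06). Pcna, which encircles DNA and holds polymerases to it, measured 14.15, 14.19, 14.18, 14.005 and 13.92 in DKO crypts, against 13.46, 13.17, 13.31, 13.25 and 13.39 in control crypts, a rise of 0.78 ± 0.06 (adjusted p = 1.41e-06) that again left the groups apart. Prim1, the catalytic subunit of DNA primase, rose by 0.87 ± 0.07 (adjusted p = 2.2e-06) and Rpa1, a subunit of the complex that coats single-stranded DNA, by 0.80 ± 0.07 (adjusted p = 2.2e-06).

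Rb KO crypts had values close to these: 48 of the 54 genes were higher in Rb KO than in control crypts (7.33% of all genes were higher and 2.97% lower), with a median difference of 0.47. Between DKO and Rb KO crypts, 0 were higher and 2 lower (5.17% and 7.22% of all genes), with a median difference of 0.02. Rrm2 differed by 0.07 between DKO and Rb KO (adjusted p = 0.657) and Pcna by 0.05 (adjusted p = 0.671). These comparisons share arrays, so their values are set side by side only.

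Many of these genes carry the sequence that E2F factors recognise close to their start site. Windows from 250 bases before to 50 after each start, taken from RefSeq on GRCm38.p6, were searched on both strands for TTTCCCGC, TTTCGCGC, TTTGCCGC and TTTGGCGC, none of which contains another. Of 14804 windows of tested genes 3.49% held at least 1 of them, and of the windows of genes that rose and of genes that fell 7.98% and 2.9% did. Among the DNA replication genes 19 of 55 windows (34.5%) held it, among G2/M and mitosis genes 6 of 53 (11.3%). Pole2, a subunit of the replicative DNA polymerase epsilon, and Pola1, the catalytic subunit of DNA polymerase alpha, are shown. They are among the listed replication genes of smallest p with a single RefSeq window that holds the motif, and genes with several windows were passed over. The capitals mark the motif as it reads on the strand of the gene, starting 10 bases after the start site in Pole2 (chr12:69228141-69228440, minus strand) and 138 bases before it in Pola1 (chrX:93632106-93632405, minus strand), a match being a description of these letters and not of binding.
Pole2: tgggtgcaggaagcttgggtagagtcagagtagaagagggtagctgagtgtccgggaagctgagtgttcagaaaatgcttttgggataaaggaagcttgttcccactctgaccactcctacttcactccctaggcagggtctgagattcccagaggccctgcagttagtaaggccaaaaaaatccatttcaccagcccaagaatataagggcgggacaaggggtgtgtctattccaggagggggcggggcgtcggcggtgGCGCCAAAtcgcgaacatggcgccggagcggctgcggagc
Pola1: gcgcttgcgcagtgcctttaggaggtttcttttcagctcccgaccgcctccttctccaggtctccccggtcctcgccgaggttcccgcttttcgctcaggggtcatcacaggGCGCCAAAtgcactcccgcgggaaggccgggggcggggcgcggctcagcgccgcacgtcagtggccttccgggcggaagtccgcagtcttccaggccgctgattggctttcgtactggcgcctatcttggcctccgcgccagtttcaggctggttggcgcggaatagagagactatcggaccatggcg
Pole2 measured 9.69, 9.77, 9.81, 9.80 and 9.55 in DKO crypts, against 9.03, 8.82, 9.11, 9.06 and 8.98 in control crypts, a rise of 0.73 ± 0.07 (adjusted p = 3.52e-06) with no overlap. Pola1 rose by 0.65 ± 0.06 (adjusted p = 3.52e-06), but only 1 of its 2 probe sets was higher in DKO.

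**Figure D1:**
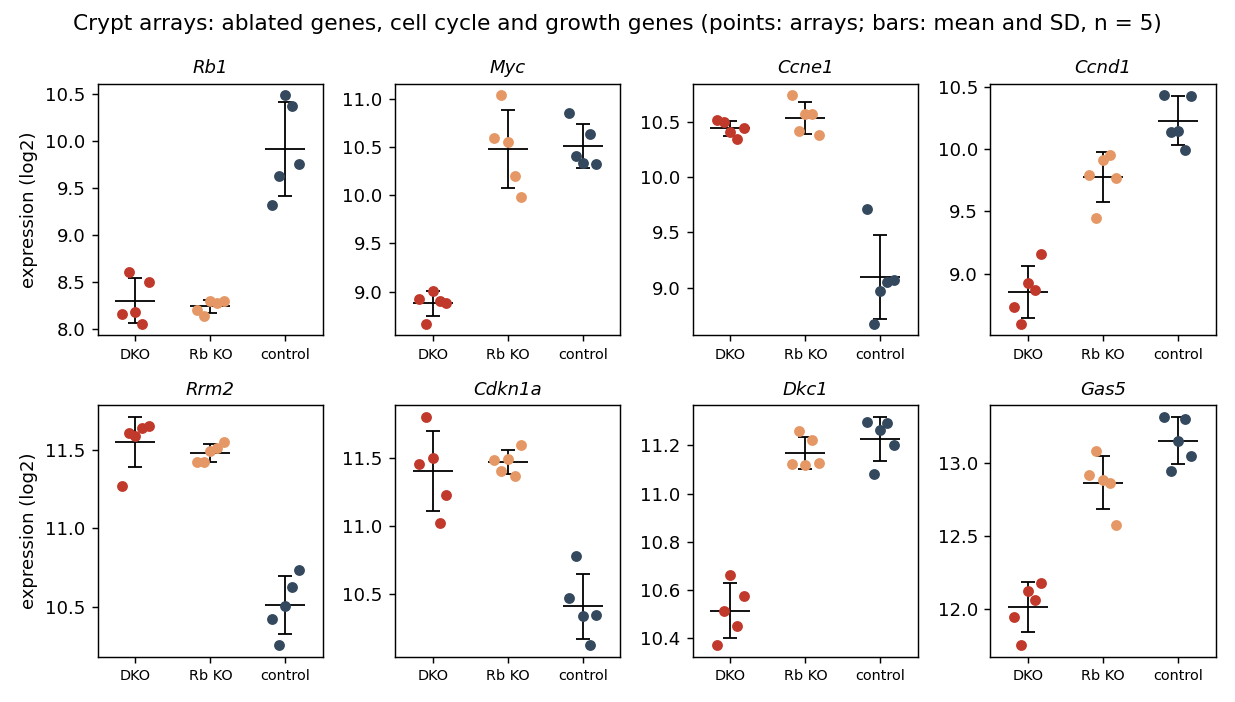
Expression (log2) of 8 genes on each crypt array, DKO on the left, Rb KO in the middle and control on the right; points are arrays and bars mean ± SD (n = 5). Rb1 is low in DKO and Rb KO, and Myc and Dkc1 are low in DKO alone. Gas5 is lowest in DKO, with most Rb KO arrays between DKO and control. Ccne1, Rrm2 and Cdkn1a are high in both knockouts, while Ccnd1 falls furthest in DKO.

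Mitotic genes were higher as well, by slightly less. Among G2/M and mitosis genes 58 were measured, of which 49 rose and 0 fell, with a median of 0.41, and 34 had fully separate arrays. The proliferation antigen Ki-67, encoded by Mki67, measured 12.11, 12.25, 12.34, 12.47 and 12.53 in DKO crypts, against 11.998, 11.50, 11.82, 12.11 and 11.70 in control crypts. The highest control array reached the lowest DKO array, and the difference was 0.51 ± 0.10 (adjusted p = 0.0024). Ndc80, which ties the kinetochore to microtubules, rose by 0.67 ± 0.09 (adjusted p = 4.73e-05), and the spindle assembly factor Tpx2 by 0.57 ± 0.07 (adjusted p = 2.84e-05). Ncaph, a condensin subunit, stood higher in DKO than in control by 0.55 ± 0.07 (adjusted p = 5.65e-05) and higher in DKO than in Rb KO by 0.24 (adjusted p = 0.0361). Of the 58 genes, 32 were higher in Rb KO than in control crypts, with a median of 0.31. With all 30 arrays in the fit, where villi add to the estimate of the spread, 10 of the 58 passed.

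Among the E2F factors and pocket proteins, 11 of 19 genes rose and 0 fell, with a median of 0.23. E2f7, a repressor E2F, rose by 0.87 ± 0.12 (adjusted p = 0.000105) and E2f1, the classical activator of S-phase genes, by 0.83 ± 0.08 (adjusted p = 3.89e-06). Rbl1, which encodes the pocket protein p107, measured 10.42, 10.54, 10.52, 10.41 and 10.56 in DKO crypts, against 9.68, 9.69, 9.81, 9.73 and 9.75 in control crypts. Its arrays were far apart, with a rise of 0.76 ± 0.05 (adjusted p = 4.94e-08), and it was also higher in DKO than in Rb KO, by 0.21 (adjusted p = 0.00565). Rbl2 (p130) and E2f4, by contrast, had differences of -0.02 and -0.03 and did not pass.

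The cyclins of G1 moved in opposite directions. Of 12 G1 cyclins, kinases and related genes, 5 rose and 1 fell. Ccne1 and Ccne2 encode the E cyclins that drive entry into S phase. Ccne1 measured 10.52, 10.50, 10.41, 10.35 and 10.45 in DKO crypts, against 9.71, 8.67, 8.97, 9.05 and 9.07 in control crypts. All DKO arrays lay above all control arrays, a rise of 1.35 ± 0.14 (adjusted p = 5.96e-06). Ccne2 rose by 1.16 ± 0.13 (adjusted p = 1.32e-05) and the partner kinase Cdk2 by 0.60 ± 0.07 (adjusted p = 1.54e-05). The D cyclins, which act upstream by directing phosphorylation of the retinoblastoma protein, split. Ccnd1 measured 8.74, 8.60, 8.93, 8.87 and 9.16 in DKO crypts, against 10.43, 10.14, 10.15, 9.99 and 10.43 in control crypts. It fell by 1.37 ± 0.12 (adjusted p = 1.86e-06), with Rb KO between the groups (-0.45 from control, adjusted p = 0.0206, and DKO minus Rb KO -0.92, adjusted p = 0.000124). Ccnd2, picked after its values were seen, measured 13.00, 13.00, 13.33, 13.67 and 13.34 in DKO crypts, 11.41, 11.80, 11.22, 11.41 and 11.09 in Rb KO crypts and 12.40, 12.12, 12.01, 12.39 and 12.02 in control crypts. It rose by 1.08 ± 0.14 (adjusted p = 6.11e-05) in DKO and fell in Rb KO (-0.80, adjusted p = 0.00184), so the knockouts lay on opposite sides of control, 1.88 apart (adjusted p = 2.12e-06). All 7 of its probe sets and all 3 of Ccnd1 had the sign of the one reported.

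Of 26 measured inhibitors of cyclin-dependent kinases and p53 targets, 8 rose and 1 fell. Of the 6 inhibitors among them 4 rose, and Cdkn1b and Cdkn2b had differences of 0.32 and 0.09 and did not pass. Cdkn1a, encoding p21, measured 11.46, 11.80, 11.50, 11.02 and 11.23 in DKO crypts, against 10.47, 10.78, 10.34, 10.12 and 10.35 in control crypts, a rise of 0.99 ± 0.13 (adjusted p = 5.51e-05) with no overlap. Cdkn2c (p18) rose by 0.95 ± 0.09 (adjusted p = 4.55e-06), Cdkn1c (p57) by 0.84 ± 0.13 (adjusted p = 0.000226) and Cdkn2d (p19) by 0.79 ± 0.09 (adjusted p = 2.23e-05). Of the other 20 members 4 rose, 1 fell and 15 did not pass, with a median of -0.066. Those that rose were Plk2, Phlda3, Tnfrsf10b and Gadd45a, with differences of 0.32, 0.31, 0.30 and 0.29, and Perp fell (-0.17). Cdkn1a was as high in Rb KO crypts (1.06 from control, adjusted p = 7.68e-05), and DKO differed from Rb KO by -0.07 (adjusted p = 0.793). Among 20 apoptosis genes 4 rose and 3 fell (20% and 15%, beside 11.0% and 9.19% of all genes). Bcl2l11, encoding the death-promoting protein BIM, rose by 0.67 ± 0.11 (adjusted p = 0.000476), and Bid, another death-promoting member of the family, fell by 0.64 ± 0.08 (adjusted p = 2.84e-05).

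Transcripts of ribosome biogenesis genes were mostly lower in DKO crypts. Of 69 measured genes of ribosome biogenesis, 43 fell and 0 rose, with a median of -0.30, and in 38 of them the DKO arrays lay fully below the control arrays. Averaged over the list, the DKO arrays stood at -0.40, -0.41, -0.21, -0.22 and -0.29 of the control mean, and the control arrays between -0.14 and 0.07. Dkc1, the pseudouridine synthase that modifies ribosomal RNA, measured 10.37, 10.51, 10.66, 10.45 and 10.57 in DKO crypts, against 11.30, 11.08, 11.26, 11.29 and 11.20 in control crypts. The arrays did not overlap, and it fell by 0.71 ± 0.06 (adjusted p = 2.08e-06). Npm1, nucleophosmin, a major protein of the nucleolus, fell by 0.59 ± 0.06 (adjusted p = 6.28e-06), Wdr12, needed to process the large-subunit RNA, by 0.66 ± 0.07 (adjusted p = 8.31e-06) and Rcl1, which acts on the small-subunit precursor, by 0.54 ± 0.06 (adjusted p = 6.96e-06). In Rb KO crypts 1 gene of the list was higher and 0 were lower than in control, with a median of 0.01, and 51 were lower in DKO than in Rb KO, with a median of -0.30.

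The E-box CACGTG, the preferred site of Myc with Max and a palindrome that reads the same on both strands, was found in 9.22% of the 14804 windows of tested genes. It was found in 8.1% of windows of genes that rose and 13.6% of windows of genes that fell. Among ribosome biogenesis genes 13 of 64 windows (20.3%) held it, and among translation factors 10 of 41 (24.4%). Other lists with falls, described below, differed in this. Chaperonin and import genes held it in 7 of 26 windows (26.9%) and tRNA synthetases in 4 of 12 (33.3%). Polymerase I and III genes held it in 6 of 34 (17.6%) and nucleotide synthesis genes in 4 of 25 (16%). Mitochondrial ribosomal proteins held it in 7 of 71 (9.86%), fatty acid oxidation genes in 1 of 29 (3.45%) and one-carbon and polyamine genes in 0 of 16. Ribosomal proteins held it in 5 of 47 windows (10.6%), branched-chain amino acid breakdown genes in 1 of 28 (3.57%) and snoRNA hosts in 0 of 17. Clock genes, of which 0 fell, held it in 6 of 20 (30%). Nle1 and Tsr1, factors of large- and small-subunit assembly, are shown by the same rule. They are among the biogenesis genes of smallest p with a single RefSeq window that holds this E-box. The Tsr1 window also holds GCGGCAAA, which is the E2F sequence TTTGCCGC read on the other strand and is left in lower case. Capitals mark it, 23 bases after the start site in Nle1 (chr11:82908346-82908645, minus strand) and 24 after it in Tsr1 (chr11:74897830-74898129, plus strand), in RefSeq sequence of GRCm38.p6.
Nle1: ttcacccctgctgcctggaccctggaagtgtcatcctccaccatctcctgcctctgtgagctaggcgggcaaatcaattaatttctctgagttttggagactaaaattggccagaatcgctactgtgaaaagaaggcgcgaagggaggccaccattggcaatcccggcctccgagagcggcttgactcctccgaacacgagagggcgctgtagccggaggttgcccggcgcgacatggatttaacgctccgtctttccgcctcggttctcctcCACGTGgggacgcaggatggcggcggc
Tsr1: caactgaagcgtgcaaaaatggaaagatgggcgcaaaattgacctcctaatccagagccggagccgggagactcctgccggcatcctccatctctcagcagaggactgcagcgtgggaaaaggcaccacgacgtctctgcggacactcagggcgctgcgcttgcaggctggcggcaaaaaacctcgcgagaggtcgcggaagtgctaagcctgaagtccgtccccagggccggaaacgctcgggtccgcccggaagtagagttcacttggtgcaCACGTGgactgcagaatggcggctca
Nle1 measured 8.39, 8.21, 8.52, 8.35 and 8.45 in DKO crypts, against 8.98, 8.80, 8.93, 9.10 and 8.91 in control crypts. Tsr1 measured 9.75, 9.58, 9.81, 9.91 and 9.75 in DKO crypts, against 10.49, 10.14, 10.38, 10.66 and 10.38 in control crypts. Neither gene's groups overlapped: Nle1 fell by 0.56 ± 0.07 (adjusted p = 2.77e-05) and Tsr1 by 0.65 ± 0.09 (adjusted p = 6.43e-05).

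The polymerases that transcribe ribosomal and transfer RNA followed in part. Of 30 genes of RNA polymerase I and III, 11 fell and 0 rose, with a median of -0.11. Polr1b, a large subunit of polymerase I, fell by 0.74 ± 0.07 (adjusted p = 3.92e-06), and Polr3g, a polymerase III subunit, by 0.62 ± 0.07 (adjusted p = 1.03e-05). Of the cytosolic ribosomal proteins 45 of 81 listed genes were measured, since many lack a probe set of their own. Of these 39 fell and 0 rose, with a median of -0.30. Rps6, the small-subunit protein phosphorylated downstream of mTOR, measured 9.44, 9.66, 9.69, 9.75 and 9.60 in DKO crypts, against 10.68, 10.43, 10.68, 10.68 and 10.61 in control crypts, and fell by 0.99 ± 0.06 (adjusted p = 1.34e-07) with the groups far apart. Rpl14 fell by 0.85 ± 0.06 (adjusted p = 1.51e-07), Rpl22l1 by 0.71 ± 0.06 (adjusted p = 2.59e-06) and Rps19 by 0.49 ± 0.05 (adjusted p = 7.43e-06). Ribosomal protein genes have many near-identical pseudogenes, so their probe sets may read more than 1 locus. With all 30 arrays in the fit, 8 of the 45 passed and 23 of the 69 biogenesis genes did.

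**Figure D2:**
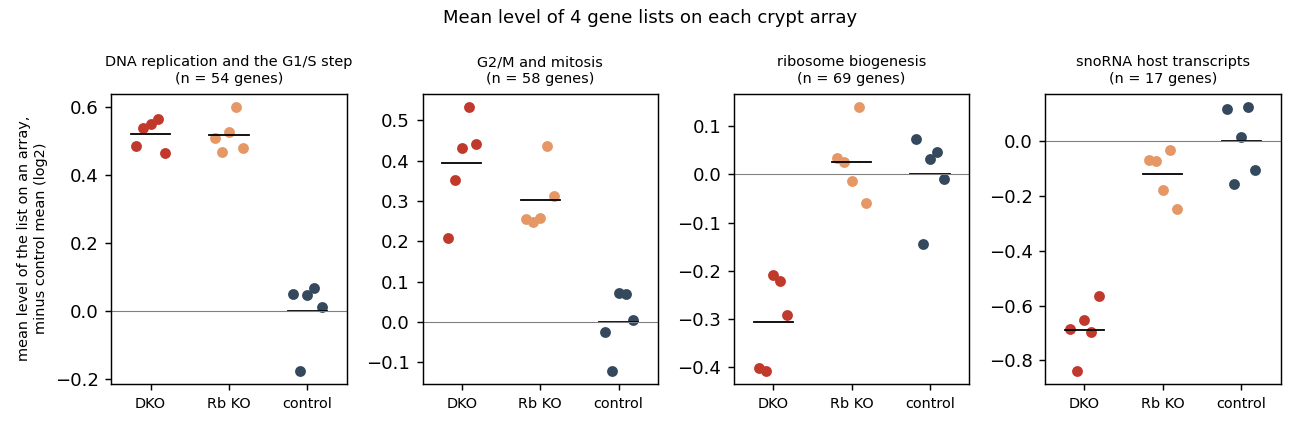
Mean level of 4 gene lists on each crypt array, minus the mean of the control arrays (log2); DKO on the left, Rb KO in the middle and control on the right, points are arrays and black lines group means. The DKO arrays stand 0.46 to 0.56 above the control mean for DNA replication, as the Rb KO arrays do, and 0.57 to 0.84 below it for snoRNA host transcripts, where the Rb KO arrays lie near control.

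Transcripts that host small nucleolar RNAs had the lowest median of all lists examined. Small nucleolar RNAs guide the modification of ribosomal RNA and are spliced from introns of these hosts. This list was drawn up after values had been seen, so its counts and the rank of its median among the lists are a description. Of 17 measured hosts 13 fell and 0 rose, with a median of -0.75. Gas5, a non-coding RNA that accumulates when growth stops, measured 11.94, 11.75, 12.12, 12.06 and 12.18 in DKO crypts, 12.91, 13.08, 12.88, 12.86 and 12.58 in Rb KO crypts and 13.32, 12.95, 13.15, 13.30 and 13.05 in control crypts. All 4 of its probe sets were lower, the groups did not overlap, and Gas5 fell by 1.14 ± 0.10 (adjusted p = 2.32e-06). Snhg4 measured 8.53, 8.72, 8.86, 8.94 and 9.41 in DKO crypts, against 10.85, 10.16, 10.56, 10.85 and 10.25 in control crypts, a fall of 1.64 ± 0.16 (adjusted p = 4.8e-06). Snhg6 fell by 1.12 ± 0.13 (adjusted p = 2.84e-05) and Snhg14 by 1.09 ± 0.11 (adjusted p = 4.55e-06). In DKO 12 of the 17 were lower than in Rb KO, and 1 was lower in Rb KO than in control.

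Fewer genes passed among those for translation and for the folding and import of proteins. Of 44 initiation and elongation factors 18 fell and 0 rose, with a median of -0.14. Eef1b2, an exchange factor of elongation, fell by 0.77 ± 0.06 (adjusted p = 1.61e-06), Eif4b, a partner of the initiation helicase, by 0.80 ± 0.07 (adjusted p = 3.07e-06), and Eif1a by 0.59 ± 0.06 (adjusted p = 3.41e-06). Of 19 aminoacyl-tRNA synthetases 5 fell and 1 rose, and of 23 chaperonin, import and related genes 10 fell and 2 rose. Cct5, a subunit of the cytosolic chaperonin, fell by 0.38 ± 0.06 (adjusted p = 0.000313) and Tomm20, a receptor for import into mitochondria, by 0.42 ± 0.06 (adjusted p = 0.000211). Of 74 mitochondrial ribosomal proteins 15 fell, Mrpl23 by 0.46 ± 0.06 (adjusted p = 6.19e-05), and 3 rose. The background for these counts of falls is the 9.19% of all genes.

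Genes of nucleotide synthesis differed by step. Of 21 genes of purine and pyrimidine synthesis 10 fell and 1 rose, with a median of -0.15, whereas ribonucleotide reductase rose. Ppat, the first committed enzyme of purine synthesis, fell by 0.67 ± 0.09 (adjusted p = 0.00011), with 2 of its 3 probe sets lower. Cad, which opens pyrimidine synthesis, fell by 0.65 ± 0.11 (adjusted p = 0.000468) and Atic, which completes the purine ring, by 0.59 ± 0.06 (adjusted p = 8.7e-06). Dctd, which deaminates dCMP on the way to thymidylate, measured 6.93, 6.77, 7.11, 7.35 and 7.41 in DKO crypts, against 8.47, 8.08, 8.26, 8.57 and 8.18 in control crypts, and fell by 1.19 ± 0.12 (adjusted p = 7.42e-06), one of the largest drops, with no overlap. In one-carbon and polyamine metabolism 5 of 18 fell and 4 rose. Srm, spermidine synthase, fell by 0.74 ± 0.12 (adjusted p = 0.000487) and Shmt2, mitochondrial serine hydroxymethyltransferase, by 0.61 ± 0.11 (adjusted p = 0.000794), but Mthfd2, the next mitochondrial folate enzyme, rose by 0.54 ± 0.09 (adjusted p = 0.000624). Dtd1, which removes D-amino acids from transfer RNA, fell by 1.29 ± 0.07 (adjusted p = 4e-08).

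Genes of fuel metabolism changed in both directions. Of 18 glycolytic genes 5 rose and 3 fell: Gapdh rose by 0.32 ± 0.05 (adjusted p = 0.000579) and Ldha, lactate dehydrogenase, by 0.27 ± 0.06 (adjusted p = 0.00272). Breakdown of branched-chain amino acids and oxidation of fatty acids were examined with lists drawn up after values had been seen. Of 25 genes of branched-chain amino acid breakdown 15 fell and 1 rose, with a median of -0.32. Aldh6a1, methylmalonate-semialdehyde dehydrogenase of the valine pathway, measured 8.43, 8.498, 8.21, 8.64 and 8.35 in DKO crypts, 8.79, 8.88, 8.85, 8.72 and 8.75 in Rb KO crypts and 9.08, 9.29, 9.39, 9.54 and 9.08 in control crypts, a stepwise order in which no array of one group reached the next. It fell by 0.85 ± 0.09 (adjusted p = 1.06e-05) from control, Mccc2 of the leucine pathway by 0.73 ± 0.07 (adjusted p = 5.64e-06) and Hibadh of the valine pathway by 0.55 ± 0.05 (adjusted p = 3.92e-06). In Rb KO crypts 11 of the 25 were lower than in control. Of 31 genes of fatty acid oxidation 7 fell and 1 rose. Pecr, a peroxisomal enoyl-CoA reductase picked after its values were seen, fell by 1.04 ± 0.06 (adjusted p = 4e-08). Echdc3, related to enoyl-CoA hydratases, fell by 1.24 ± 0.22 (adjusted p = 0.000883), and control array 5, at 9.66, was the highest.

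**Figure D3:**
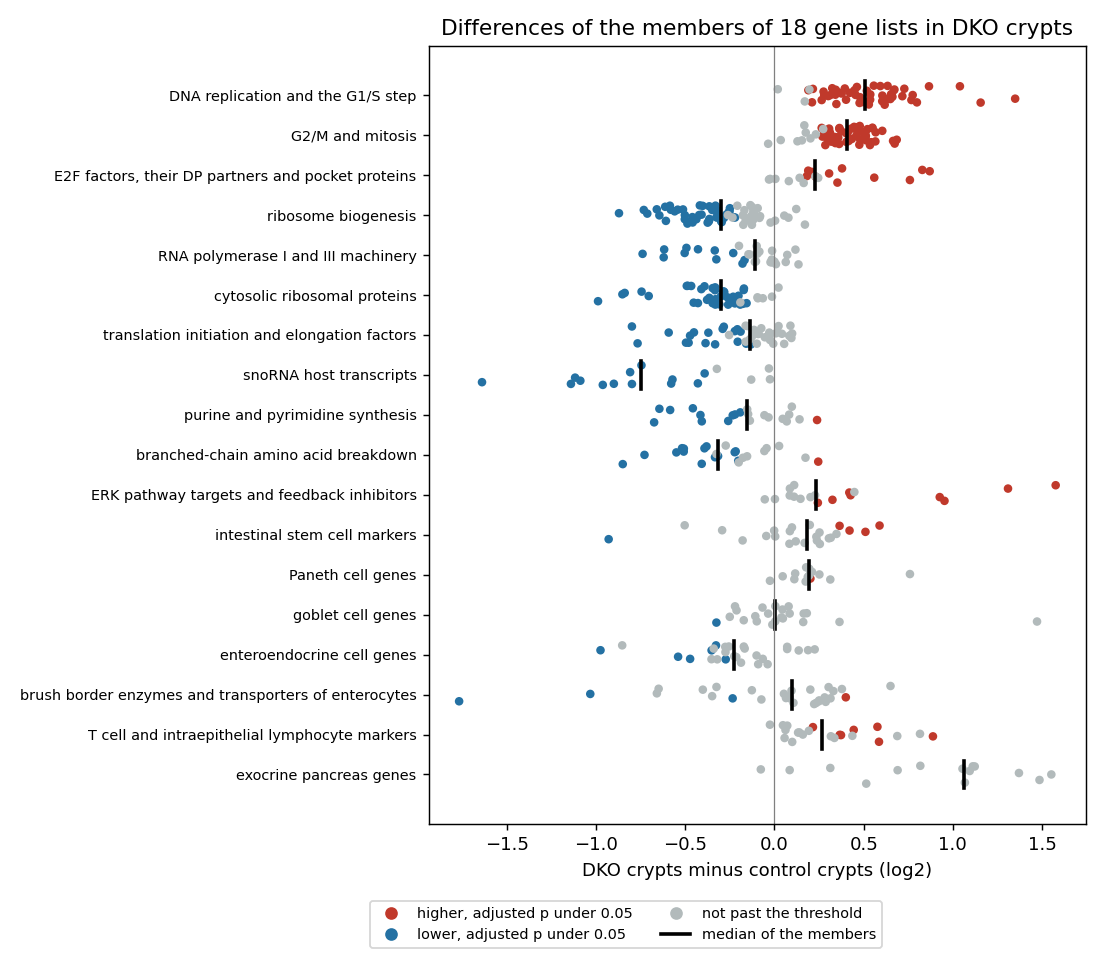
Difference between DKO and control crypts (log2) for each measured member of 18 gene lists; red points rose and blue points fell at adjusted p under 0.05, grey points did not pass, and black bars are medians. Replication and mitosis lie to the right of 0, ribosome and translation lists and snoRNA hosts to the left, and exocrine pancreas genes are shifted to the right with 0 of 14 passing.

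The largest rises lay outside these programmes. Pla2g5, a secreted phospholipase A2, measured 8.84, 8.77, 9.79, 10.08 and 9.90 in DKO crypts, against 7.73, 6.39, 5.68, 7.53 and 7.06 in control crypts. Rgcc, a regulator of the cell cycle first known for its response to complement, measured 9.52, 9.63, 10.53, 10.30 and 9.71 in DKO crypts, 7.22, 7.65, 6.97, 7.04 and 7.13 in Rb KO crypts and 7.69, 7.31, 8.06, 7.59 and 6.93 in control crypts. Both genes had all DKO arrays above all control arrays. Pla2g5 rose by 2.598 ± 0.39 (adjusted p = 0.000194), a 6.05-fold change, and Rgcc by 2.42 ± 0.22 (adjusted p = 2.78e-06), a 5.36-fold change. For Rgcc the Rb KO arrays stayed near control (-0.31, adjusted p = 0.422), and DKO stood 2.74 above Rb KO (adjusted p = 2.89e-06). Mboat1, an acyltransferase of phospholipids, rose by 1.93 ± 0.22 (adjusted p = 1.47e-05), with Rb KO at 1.03 (adjusted p = 0.00591). Tcf23, a basic helix-loop-helix factor, rose by 1.82 ± 0.21 (adjusted p = 1.57e-05), and Tlr1, a Toll-like receptor for bacterial lipopeptides, by 1.61 ± 0.15 (adjusted p = 3.07e-06). Efr3b, which anchors a phosphoinositide kinase at the membrane, rose by 1.49 ± 0.20 (adjusted p = 6.36e-05), Fbln1, the matrix protein fibulin-1, by 1.29 ± 0.17 (adjusted p = 5.45e-05), Wtip, a LIM-domain protein, by 1.37 ± 0.12 (adjusted p = 2.2e-06) and the actin-severing protein gelsolin, Gsn, by 1.27 ± 0.18 (adjusted p = 0.00014) (5 of its 6 probe sets).

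Several of the largest rises were ligands, receptors and targets of 2 signalling pathways. Lists for both were drawn up after values had been seen. In the BMP and TGF-β pathway 12 of 35 genes rose and 3 fell. Bmp4, a BMP ligand usually made by the stroma around crypts and villi, measured 7.24, 8.06, 8.67, 7.37 and 7.51 in DKO crypts, 6.10, 5.75, 5.90, 5.84 and 5.94 in Rb KO crypts and 6.03, 5.67, 6.10, 5.62 and 5.98 in control crypts. No DKO array reached down to the other groups, and Bmp4 rose by 1.89 ± 0.21 (adjusted p = 1.33e-05). The 17 fibroblast markers, Bmp4 among them, had a median of -0.13. Tgfbr2, the type II receptor of TGF-β, measured 9.57, 10.05, 10.12, 10.10 and 9.84 in DKO crypts, against 8.40, 8.36, 8.63, 8.87 and 8.09 in control crypts, a rise of 1.46 ± 0.14 (adjusted p = 4.02e-06) that 2 of its 3 probe sets shared. Id2, a helix-loop-helix protein induced by BMP signals and picked after its values were seen, rose by 1.12 ± 0.11 (adjusted p = 4.63e-06). Relative to Rb KO crypts, Bmp4 was 1.86 and Tgfbr2 1.58 higher in DKO (adjusted p = 5.03e-05 and 6.18e-06).

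Feedback genes of the ERK pathway were the second such group: 8 of 18 rose and 0 fell. In Rb KO crypts 0 of the 18 differed from control, beside 7.33% of all genes higher and 2.97% lower. For 18 genes a count of 0 is close to those shares. Dusp6, the phosphatase that dephosphorylates ERK and is itself induced by it, measured 9.27, 9.42, 9.17, 9.20 and 8.92 in DKO crypts, against 8.15, 7.69, 7.55, 7.69 and 7.02 in control crypts. Etv4, an ETS factor induced by growth factor signals, measured 8.51, 8.62, 9.003, 9.21 and 8.75 in DKO crypts, against 7.73, 7.25, 7.55, 7.38 and 7.64 in control crypts. For both genes the groups were apart, with rises of 1.58 ± 0.19 (adjusted p = 2.34e-05) for Dusp6 and 1.31 ± 0.15 (adjusted p = 2.27e-05) for Etv4. Its relative Etv5 rose by 0.95 ± 0.12 (adjusted p = 3.49e-05) and Phlda1, another growth factor target, by 0.93 ± 0.20 (adjusted p = 0.00358). Sulf2, a sulfatase that edits heparan sulfate and so the binding of growth factors, rose by 1.51 ± 0.19 (adjusted p = 4.34e-05). Of 20 immediate early genes 5 rose and 0 fell (25% rose, beside 11.0% of all genes). Among them Dusp1 rose by 0.87 ± 0.18 (adjusted p = 0.00264), and it was also higher in Rb KO crypts (1.20, adjusted p = 0.000524). That count fell to 2 without DKO array 3 or control array 3, and to 3 without DKO array 4 or control array 2.

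**Figure D4:**
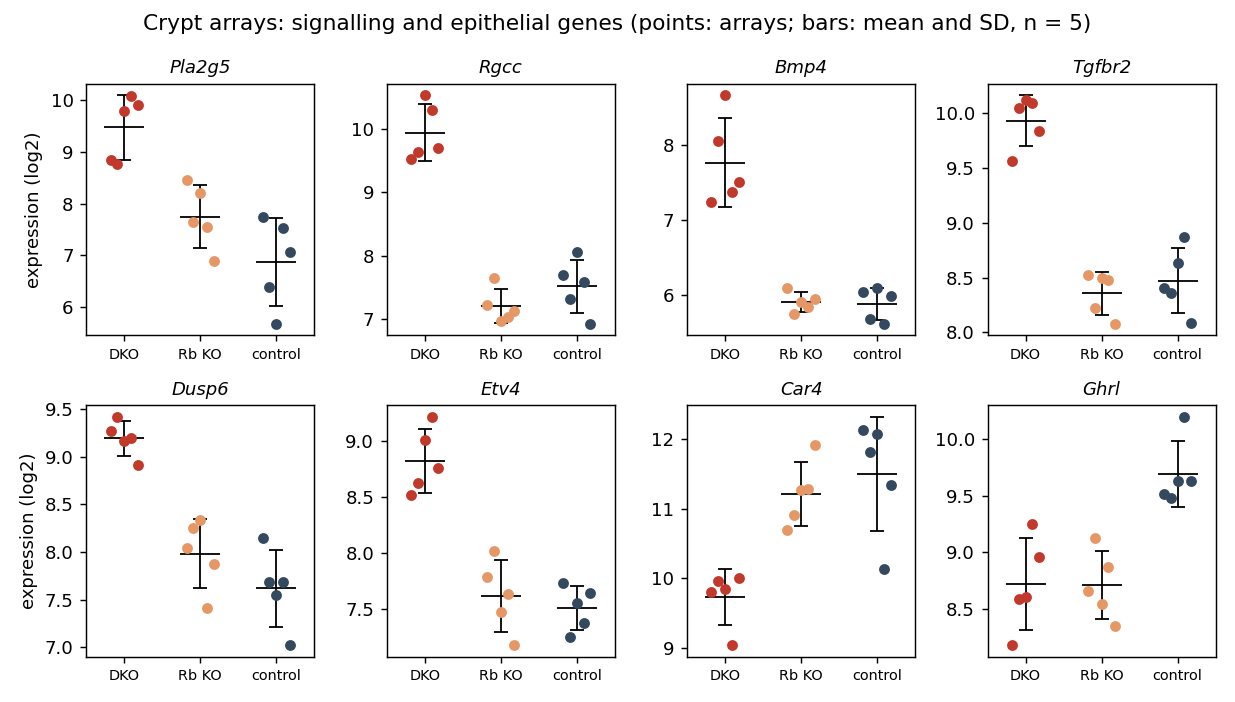
Expression (log2) of 8 signalling and epithelial genes on each crypt array, DKO on the left, Rb KO in the middle and control on the right; points are arrays and bars mean ± SD (n = 5). Pla2g5, Rgcc, Bmp4, Tgfbr2, Dusp6 and Etv4 are highest on the DKO arrays, Car4 is lowest there, and Ghrl is low in both knockouts.

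Partners of Myc showed smaller changes. Of 12 genes of the Myc, Max and Mlx network other than Myc itself, 3 rose and 2 fell. Mxd3, a member of the Mad family that competes with Myc for Max, rose by 0.49 ± 0.11 (adjusted p = 0.00365), and Mlxip, a glucose-responsive factor that pairs with Mlx, fell by 0.49 ± 0.09 (adjusted p = 0.000841). Max and Mycn had differences of -0.19 and -0.02 and did not pass. Of 50 measured neighbours of Rb1 on its chromosome, 6 were higher and 3 lower (18%), and of 50 neighbours of Myc 9 were higher and 4 lower (26%), beside 20.2% of all genes.

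Markers of the crypt base mostly did not pass against control. Of 24 stem cell genes 4 rose and 1 fell (16.7% and 4.17%, beside 11.0% and 9.19% of all genes), with a median of 0.18. Relative to Rb KO crypts 11 of the 24 were higher in DKO and 1 lower (5.17% and 7.22% of all genes), with a median of 0.28. The Rb KO median was -0.14 from control, where 0 of the 24 passed. Olfm4, a secreted glycoprotein of stem cells, measured 13.95, 13.67, 13.83, 14.12 and 13.99 in DKO crypts, against 13.83, 13.85, 13.88, 14.21 and 13.80 in control crypts, with overlapping groups and a difference of 0.00 (adjusted p = 0.99). Lgr5, the R-spondin receptor that marks cycling stem cells, differed by -0.50 (adjusted p = 0.234), with DKO arrays from 7.80 to 9.10 and control arrays from 8.41 to 9.62. Tnfrsf19 (Troy) rose by 0.59 ± 0.11 (adjusted p = 0.00105), the water channel Aqp4 by 0.51 ± 0.10 (adjusted p = 0.00156) and Bmi1, a Polycomb protein, by 0.37 ± 0.06 (adjusted p = 0.000283), while Nrn1, neuritin, fell by 0.93 ± 0.22 (adjusted p = 0.0058). Among 19 Wnt targets 6 rose (31.6%, beside 11.0% of all genes), Sp5 by 0.83 ± 0.13 (adjusted p = 0.000313), and Ccnd1 fell. The 6 became 3 without DKO array 3, 4 or 5 or without control array 3. Relative to Rb KO crypts 8 of the 19 Wnt targets were higher in DKO and 1 lower.

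Secretory and absorptive genes were mostly within the spread. Of 14 Paneth genes 1 rose, of 22 goblet genes 1 fell, of 16 tuft genes 1 rose and of 18 Notch and secretory fate genes 1 rose and 1 fell, beside 20.2% of all genes. Relative to Rb KO crypts 6 of the 14 Paneth genes were higher in DKO and 0 lower, and of the 22 goblet genes 0 were higher and 5 lower (5.17% and 7.22% of all genes). Enteroendocrine genes leaned lower: 6 of 27 fell and 0 rose, with a median of -0.23. Ghrl, the hormone ghrelin, measured 8.17, 8.59, 8.60, 9.25 and 8.96 in DKO crypts, 8.65, 9.12, 8.54, 8.87 and 8.35 in Rb KO crypts and 9.52, 9.48, 9.63, 10.20 and 9.63 in control crypts. Both knockouts lay below all control arrays, and Ghrl fell by 0.98 ± 0.19 (adjusted p = 0.00162) in DKO. Tph1, which makes serotonin in enterochromaffin cells, fell by 0.54 ± 0.14 (adjusted p = 0.01) and the granule protein chromogranin A, Chga, by 0.47 ± 0.13 (adjusted p = 0.0156), both with overlapping arrays. The count of 6 became 3 without DKO array 2 or control array 2, and 10 without control array 5.

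Of 29 brush border genes 3 fell and 1 rose (10.3% and 3.45%, beside 9.19% and 11.0% of all genes). Car4, the carbonic anhydrase of enterocyte membranes, had the largest fall among genes whose groups were apart. It measured 9.81, 9.97, 9.85, 9.04 and 9.999 in DKO crypts, against 12.13, 11.82, 12.07, 10.14 and 11.34 in control crypts, where array 4 was the lowest yet above every DKO array, and it fell by 1.77 ± 0.33 (adjusted p = 0.00115). Among 27 lipid absorption genes 4 fell and 1 rose (14.8% and 3.7%, beside the same shares of all genes). Pck1, a gluconeogenic enzyme, differed most, by -1.36 (adjusted p = 0.00638), with overlapping arrays and 2 of its 3 probe sets lower. Vdr, the vitamin D receptor, was the only 1 of 16 enterocyte transcription factors to pass and fell by 0.73 ± 0.09 (adjusted p = 4.69e-05). Of other genes with large falls, the esterase Ces1e fell by 1.10 ± 0.13 (adjusted p = 3.45e-05). The nucleoside transporter Slc28a3 fell by 1.08 ± 0.16 (adjusted p = 0.000151) and the centrosomal gene Sdccag8 by 1.09 ± 0.12 (adjusted p = 1.79e-05) (2 of 3 probe sets each). Fstl1, a secreted follistatin relative, fell by 1.14 ± 0.22 (adjusted p = 0.00139). Of 7 aryl hydrocarbon receptor targets, the receptor to which the promoter of the Cre responds, 0 passed and the list's median was -0.05.

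Among markers of cells outside the epithelium, the T cell list had the most genes past the threshold. Of 22 T cell and intraepithelial lymphocyte markers 7 rose and 0 fell, with a median of 0.27, and their mean level was 7.25 to 7.52 in DKO crypts and 6.99 to 7.23 in control crypts, just apart. Itgae, the integrin that holds lymphocytes in the epithelium, rose by 0.58 ± 0.11 (adjusted p = 0.00135), Cd3g of the T cell receptor complex by 0.89 ± 0.23 (adjusted p = 0.0123) and the lymphocyte antigen Cd7 by 0.44 ± 0.11 (adjusted p = 0.0117), but Cd3e and Cd8b1 differed by 0.06 and 0.10 without passing. The count of 7 became 4 without DKO array 2, control array 3 or control array 4. Of 33 interferon-response genes 5 rose and 0 fell, Stat2 by 0.50 ± 0.10 (adjusted p = 0.00278). With the T cell level as a covariate, chosen after seeing the data, 593 genes rose and 409 fell. DKO and control arrays do not overlap on that level, so it and genotype cannot be told apart here. Under it 23 of the genes named here no longer passed. These were Bcl2l11, Mxd3, Cad, Srm, Shmt2, Gapdh, Ldha, Echdc3, Fstl1, Tnfrsf19, Aqp4, Nrn1, Sp5, Ghrl, Tph1, Chga, Dusp1, Stat2, Aqp1 and Phlda1, and also Itgae, Cd7 and Cd3g, which are part of the covariate, so that their loss says nothing. Slc6a20b, which had not passed, did so. Of the list counts, mitosis genes that rose became 32, E2F and pocket protein genes 6, inhibitors and p53 targets 5, ERK feedback genes 5, BMP and TGF-β genes 5, responses to unfolded protein 2, Wnt targets 1, immediate early genes 1, and glycolytic and interferon-response genes 0 each. Those that fell became 16 in ribosome biogenesis, 8 among snoRNA hosts, 8 among translation factors, 7 in branched-chain amino acid breakdown, 4 for polymerases I and III, 3 each for chaperonin and import, nucleotide synthesis and fatty acid oxidation, 2 for mitochondrial ribosomes, and 0 each for tRNA synthetases, one-carbon and polyamine metabolism and enteroendocrine genes. Exocrine pancreas genes varied from array to array: 0 of 14 passed, with a median of 1.06 and mean levels of 8.45 to 11.87 in DKO crypts and 8.43 to 10.50 in control crypts. With that level as a covariate 1343 genes rose and 1167 fell, and 6 list counts moved by over 1.5 times: inhibitors and p53 targets that rose became 5, T cell markers 4, Wnt targets 3, responses to unfolded protein 3 and immediate early genes 2, and tRNA synthetases that fell became 3. Of 17 fibroblast markers 2 rose, 1 of them Bmp4, and 1 fell, and in smooth muscle, endothelium, B and plasma cells, myeloid and mast cells at most 2 genes of a list rose and 0 fell. Of 16 heat shock, 19 cholesterol synthesis and 17 clock genes 0, 0 and 2 rose and 1, 1 and 0 fell, 0 of 9 MHC class II genes passed, and of 8 enteric neuron and glia genes 1 rose and 1 fell, and 1 of 2 erythrocyte genes rose. Of 21 genes of the unfolded protein and amino acid responses 5 rose and 1 fell, the chaperone-associated Sdf2l1 by 0.61 ± 0.09 (adjusted p = 0.000124), and 3 rose without DKO array 3 or control array 2.

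Villi of the same genotypes allow the double knockout's effect to be compared between compartments. The fit over all 30 arrays tested the difference of the effects, crypt minus villus, and 269 genes (1.85%) had a higher and 749 (5.15%) a lower value in crypts. Arrays of a crypt and a villus sample with the same genotype and number deviated together in 15 of 15 cases and were taken as the same animal. With the animal as a random block (replicate block, correlation 0.233) the counts were 748 and 1230. The SE and adjusted p given below for single genes come from the fit without this block. All 47 named genes whose interaction passed there also passed with the block. The direction split depends on scaling: with each array centred on its median they were 1465 higher and 556 lower (72.5% higher, against 26.4% as deposited and 38.1% after quantile normalization), and the median over all genes was then 0.13, against 0.0177 as deposited. With an animal left out the higher genes numbered 129 to 316, and fell to 136, 129 and 170 without DKO 2, 3 and 4 and to 141 and 173 without control 2 and 3. The lower genes numbered 486 (without DKO 5) to 1035.

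DNA replication genes rose less on the log2 scale in crypts than in villi. Starting levels of proliferation can differ between the compartments. Ranked among all genes of an array, Mki67 lay at percentiles 92.96 to 96.11 in control crypts and 50.38 to 76.04 in control villi. Whether starting level bears on the size of the rises was not tested. Of the 54 DNA replication genes 51 rose in crypts and 53 in villi (14.5% of all genes rose in villi), with medians of 0.51 and 1.79. In 48 of the 54 the effect was lower in crypts by the interaction (51 with the block, 45 with centred arrays), and in 0 it was higher. The largest interaction below 0 was that of Brca1, a DNA repair gene, which differed by 3.27 in villi and 0.73 in crypts (-2.55 ± 0.21, adjusted p = 6.84e-09). Prim1 differed by 3.29 in villi, beside 0.87 in crypts, an interaction of -2.42 ± 0.21 (adjusted p = 1.57e-08). Pclaf, a PCNA partner, Hells, a chromatin remodeller, and Ncapg2, a condensin subunit, had interactions of -2.37, -2.32 and -2.33 (adjusted p = 1.57e-05, 1.33e-05 and 5.65e-07). In the mitosis list 9 of 58 were lower by this test (17 with the block), with medians of 0.41 in crypts and 1.05 in villi.

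The 69 biogenesis genes had a median of -0.30 in crypts and 0.09 in villi. In villi 10 rose and 0 fell, beside 14.5% and 8.80% of all genes, so the rises there were at the background share. The interaction was lower in crypts for 19 (34 with the block, 17 with centred arrays). Of the 17 snoRNA hosts 11 had a lower effect in crypts (11 with the block and with centred arrays), and in villi 1 fell and 2 rose. Snhg4 had an interaction of -1.72 ± 0.36 (adjusted p = 0.00327) and Gas5 of -1.07 ± 0.26 (adjusted p = 0.0123). Myc itself had an effect of -1.64 in crypts and -0.30 in villi, an interaction of -1.34 ± 0.28 (adjusted p = 0.00327). For the 45 ribosomal proteins 0 of the interactions passed (2 with the block), and no difference between compartments was shown.

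Among genes with a higher effect in crypts, Rgcc had an interaction of 1.67 ± 0.26 (adjusted p = 0.000131), Pla2g5 of 1.72 ± 0.50 (adjusted p = 0.0366), Sulf2 of 1.36 ± 0.22 (adjusted p = 0.000256) and Etv4 of 1.27 ± 0.17 (adjusted p = 1.56e-05). The water channel Aqp1 was 0.46 in crypts and -0.90 in villi, with an interaction of 1.36 (adjusted p = 0.0245). Slc6a20b, a transporter of the SLC6 family, differed by -0.58 in crypts (adjusted p = 0.0638) and by -1.88 in villi, an interaction of 1.30 ± 0.36 (adjusted p = 0.0265) that did not pass without DKO 1 or 3 or control 3 or 4. Without DKO 2, 3 or 4 or control 2, 3 or 5 the interaction of Pla2g5 no longer passed, and without DKO 3 or control 2 or 3 that of Aqp1 did not. The rise of Aqp1 in crypts, with overlapping arrays, did not pass without DKO 3 or 4 or control 2, 3 or 5. Bmp4 and Tgfbr2 rose in both compartments: Bmp4 by 1.89 in crypts and 1.87 in villi, with an interaction of 0.02 ± 0.29 (adjusted p = 0.98), and Tgfbr2 by 1.46 and 0.99 (0.48 ± 0.18, adjusted p = 0.114). Car4 fell by 1.77 in crypts and by 1.86 in villi.

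**Figure D5:**
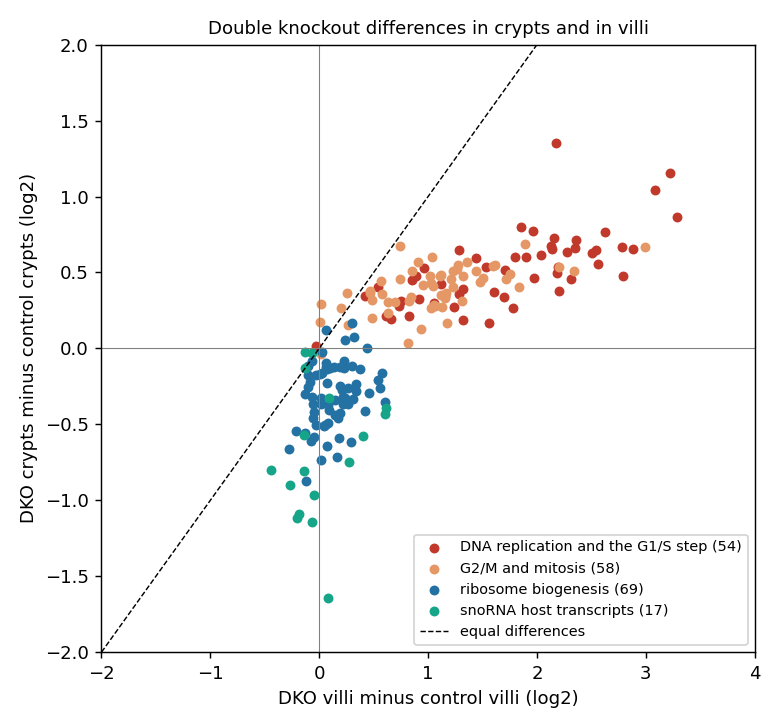
Difference between DKO and control (log2) of each gene in 4 lists, in crypts on the vertical axis and in villi on the horizontal axis; the dashed line marks equal differences. Most replication and mitosis genes lie below the line, with larger rises in villi, and most ribosome biogenesis genes and snoRNA hosts lie near 0 in villi and below 0 in crypts.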

How the data were processed

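Total RNA of 30 samples was hybridised to arrays, and this account uses the 15 crypt arrays and, for the comparison with villi, all 30. For 45101 probe sets the deposited table gives expression on a log2 scale, between 2.64 and 15.21. How the authors normalized and summarized them is not given in the sources used here, and medians were 6.67 to 6.73 in crypts and 6.28 to 6.34 in villi, so only differences within a tissue were compared. The number of arrays limits the precision.

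Probe sets with 1 symbol in the platform annotation (34958) gave 18194 genes, each represented by its probe set of highest mean over all arrays. Tests covered 14548 genes, those whose mean exceeded the 30th percentile of all probe sets (5.33). The linear model over the 3 genotypes of crypts used limma 3.58.1 under R 4.3.3, and Benjamini-Hochberg adjustment was applied at 0.05, two-sided. The interaction with villi used all arrays, and the villus values come from that fit.

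Besides Rb1 and Myc, the rule for genes named takes the 15 that differ most each way past the threshold with groups apart and a proper symbol, from each list the 4 with the smallest p and the 5 extremes of the interaction each way. Of the list members it takes, those of lists with few calls are mostly given as counts. Outside this rule, Ccnd2, Cdk2, Mki67, Nle1, Phlda1, Pola1, Pole2 and Tsr1 were picked after their values or motifs were seen, as were the members of added lists, and the remaining names are tissue markers or list members that did not pass. The members, 45 lists and rules were chosen with earlier results of these data known, and 5 lists after seeing values. Lists were described by counts and medians, with no test.

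Numbers in the labels were checked for pairing. Crypt and villus arrays of the same genotype and number correlated in their deviations from the group means (r from 0.246 to 0.560, 15 of 15), while DKO and control crypts of the same number did not in every pair. The fit was tested on simulated data. Alternatives were other joins of probe sets, filters, scalings, limma settings, arrays in the fit, blocks, sex as a covariate, thresholds and leaving out replicates; a filter over genes and the pancreas and T cell levels as covariates were added after seeing the data. Promoter windows were searched with Python 3.11.15, and figures drawn with matplotlib 3.10.9.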

Additional observations from a re-analysis of the deposited data

Results flagged for a closer look

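Among 218 groups of 5 arrays of the genes named, 16 had an array far from the other 4, by Dixon's test at a critical value of 0.71, which chance gives in about 1 of 20 groups. DKO crypt array 1 stood apart in Rrm2 at 11.27, Cdkn2d at 9 and Nrn1 at 6.32. DKO crypt array 2 stood apart in Tph1 at 7.555. DKO crypt array 4 stood apart in Car4 at 9.037. DKO crypt array 5 stood apart in Prim1 at 11.33, Tomm20 at 13 and Vdr at 11.4. Control crypt array 1 stood apart in Rpl22l1 at 12.86. Control crypt array 2 stood apart in Prim1 at 10.41, Ncaph at 10.08, Rcl1 at 9.52, Rps6 at 10.43, Wtip at 6.217 and Pclaf at 11.76. Control crypt array 4 stood apart in Ghrl at 10.2.

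In 47 of the genes named, the double knockout's effect in crypts differed from that in villi by the interaction test, and the values are crypt effect minus villus effect on the log2 scale. Effects higher in crypts were Pla2g5 1.72, Rgcc 1.67, Sulf2 1.36, Aqp1 1.36, Slc6a20b 1.3, Efr3b 1.3, Etv4 1.27, Tcf23 1.22, Fbln1 1.02, Mboat1 0.893, Etv5 0.888, Tnfrsf19 0.841 and Mxd3 0.45. Effects lower in crypts were, among cell cycle genes, Brca1 -2.55, Prim1 -2.42, Pclaf -2.37, Ncapg2 -2.33, Hells -2.32, Pola1 -2.23, E2f7 -2.19, Ccne2 -2.07, Rrm2 -2.05, Mki67 -1.82, Pole2 -1.43, Cdk2 -1.3, Pcna -1.19, Cdkn2c -1.11, Rpa1 -1.05, Ccne1 -0.828, Ccnd1 -0.809 and E2f1 -0.785. Among the remaining genes they were Snhg4 -1.72, Myc -1.34, Gas5 -1.07, Nrn1 -1.01, Snhg6 -0.917, Snhg14 -0.899, Dtd1 -0.833, Dctd -0.784, Npm1 -0.773, Mthfd2 -0.727, Tsr1 -0.72, Cad -0.662, Polr1b -0.631, Bid -0.621, Eif1a -0.504 and Nle1 -0.426. With a replicate left out, the tests of Ccnd1, Bid, Mxd3, Npm1, Eif1a, Snhg6, Mthfd2, Dctd, Pla2g5, Mboat1, Aqp1, Nle1, Tsr1 and Slc6a20b lost the threshold in at least 1 case. So did those of E2f1, Npm1 and Dtd1 when each gene's probe sets were averaged, of Bid and Nle1 with centred arrays and of Bid after quantile normalization, and 31 of the 47 kept it throughout.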

How the results depend on the processing

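Counts of higher and lower genes in DKO crypts, 1605 and 1337, were 903 and 745 at an adjusted p under 0.01, 37 and 29 with a 2-fold minimum, and 593 and 409 with the T cell marker level as a covariate (chosen after seeing the data). Leaving out a replicate gave 1298 to 1557 and 1111 to 1349. The interaction gave 1465 higher genes with centred arrays, 748 higher and 1230 lower with the animal as a block, and 129 to 316 and 486 to 1035 with a replicate left out. The median of DNA replication genes was 0.399 when each gene's probe sets were averaged, and 0.457 to 0.531 with a replicate left out, when 47 to 52 rose. Mitosis genes that rose numbered 10 with all arrays, 32 with the T cell covariate and 46 to 51 with a replicate left out (median 0.374 to 0.460). Ribosome biogenesis genes that fell numbered 23 with all arrays, 16 with the T cell covariate and 41 to 45 with a replicate left out (median -0.344 to -0.264). Ribosomal proteins that fell numbered 8 with all arrays and 37 to 39 with a replicate left out (median -0.323 to -0.275), and their median was -0.230 after quantile normalization. snoRNA hosts that fell numbered 8 with the T cell covariate (median -0.544) and 12 to 14 with a replicate left out (median -0.801 to -0.679). The cause was not tested.

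DKO and control crypts of the same number deviated together in some pairs only (r of -0.102, 0.404, 0.306, 0.259 and -0.17). Of the DKO arrays, 3 of 5 were closest to their own number. With the replicate number as a block, 1515 genes rose and 1302 fell, and no list count above moved by over 1.5 times. No gene difference named changed sign. List medians were followed only for DNA replication, mitosis, ribosome biogenesis, ribosomal proteins and snoRNA hosts, and none of these changed sign. The interaction's split did: 26.4% of its genes were higher as deposited and 72.5% with centred arrays. Of 109 genes named, 80 kept their side of the threshold under the alternatives run on genes, which leave out the stricter thresholds and, for filters at the 50th percentile and over genes, test 102 and 107 of them. Another 28 lost a call under at least 1, 23 of them under the T cell covariate, and Slc6a20b gained one without control 4 or with that covariate. With all arrays in the fit, E2F and pocket protein genes that rose numbered 4, responses to unfolded protein 3 and interferon-response genes 2, and those that fell numbered 10 among translation factors, 7 among mitochondrial ribosomal proteins, 4 each in chaperonin and import and in nucleotide synthesis and 2 among tRNA synthetases. With only DKO and control crypts, responses to unfolded protein numbered 3. Tpx2, Rps19, Mki67, Aqp4, Tph1, Pclaf, Hells and Aqp1 lost it with all arrays in the fit.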
